A study of Mus musculus with 6 samples.

Results

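Immunoglobulin variable (V) segments are the gene pieces that are joined to joining pieces, in heavy chains with a diversity piece between. They make the antigen-binding ends of antibody chains. The heavy chain segments (Ighv) lie in a row on mouse chromosome 12 and the kappa light chain segments (Igkv) in a row on chromosome 6. In B cell precursors the RAG enzymes cut the DNA at these pieces, and end-joining proteins then join them. Before that step unrearranged segments can be transcribed as germline, or sterile, transcripts. Hematopoietic stem cells (HSCs) have not yet joined their V segments. The segments are present in many similar copies, so a probe set named for 1 segment can also bind transcripts of its relatives, and which copy each cluster reports is uncertain.

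The clusters described here were chosen by their name and their mean level. This rule did not use the difference between genotypes, but it was set with earlier results of these data known. The clusters are those that the array's annotation names with a single symbol starting with Ighv, Igh-V, Igkv or Iglv. Their mean over the 6 arrays also had to be above 4.09 on the deposited log2 scale. Such a cluster is a group of probes that the array treats as 1 gene or transcript. Of 65956 clusters on the array, 200 carried such a symbol, and 130 of these were above the limit: 80 of 113 Ighv clusters, the 1 cluster named Igh-V (Igh-VS107) and 49 of 86 Igkv clusters. No cluster was named with a single Iglv symbol (0 of 65956), so the light chain clusters are all of kappa segments. The 81 heavy chain clusters were all placed on chromosome 12 and the 49 light chain clusters on chromosome 6, as the cluster names give it. Each symbol was held by 1 cluster. The RefSeq gene table held 129 of the 130 symbols and classed 6 of them as V segment pseudogenes.

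The samples were sorted bone marrow HSCs of wild-type mice (3 arrays) and of CDK19-/- mice (3 arrays), all aged 6 to 8 weeks. CDK19 is a kinase that binds Mediator, the large complex that passes signals from DNA-bound transcription factors on to RNA polymerase II. Bone marrow was depleted of cells with lineage markers and then stained and sorted. The labels call the arrays biological replicates, but they give neither the animals per array, the markers of the gate, the strain, nor the part of the gene that was removed; where arrays share animals, the p-values measure only the spread between these arrays.

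Array medians lay between 4.40 and 4.48, and their number limits the precision. The Cdk19 cluster was lower in every knockout array (12.44 ± 0.06 in wild type and 11.47 ± 0.05 in knockout, SD, n = 3 each). Of 12 tested HSC and progenitor markers, Cd34 (mean over 6 arrays 15.89), Kit (14.30), Flt3 (14.07) and Meis1 (11.67) were bright, while Slamf1 (5.72) and Fgd5 (5.28) lay under the median of 5.87 of all tested clusters. The mean over the 12 was 9.51 to 9.54 in the wild-type arrays and 9.25 to 9.29 in the knockout arrays. Of those markers 4 were called lower in the knockout (Kit, Hlf, Meis1 and Flt3), beside 4.84% of all tested clusters (limma, adjusted p under 0.05). All 4 had a level above 8. Among tested clusters with a level under 8 the share called lower was 2.97%, so among brighter ones it was above 4.84%.

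The V segment clusters were dim, and a few changed strongly while most did not pass the test. The median level was 5.16 over the 81 heavy chain clusters and 4.98 over the 49 light chain clusters, against 5.87 over all 39543 tested clusters. Only 24 heavy and 13 light chain clusters lay above that overall median. In the knockout 4 heavy chain clusters rose and 9 fell, and 2 light chain clusters rose and 3 fell, while 68 and 44 did not pass (limma, Benjamini-Hochberg adjusted p under 0.05 over all tested clusters). The called share was 16.0% of heavy chain clusters and 10.2% of light chain clusters. Among all tested clusters 7.80% were called, 2.96% higher and 4.84% lower. Among the 29485 tested clusters with a level under 8, a bound set after the levels of the V segments were seen, the share was 4.71%. The clusters were picked for description with these results known, so the shares are given as a description. Without 1 array, 3 to 6 heavy chain clusters were called lower: leaving out wild-type arrays 1, 2 and 3 in turn gave 3, 5 and 4, and leaving out knockout arrays 1, 2 and 3 gave 4, 6 and 4. The number of light chain clusters called higher was 1 when wild-type array 3, knockout array 1 or knockout array 3 was left out.

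**Figure D1:**
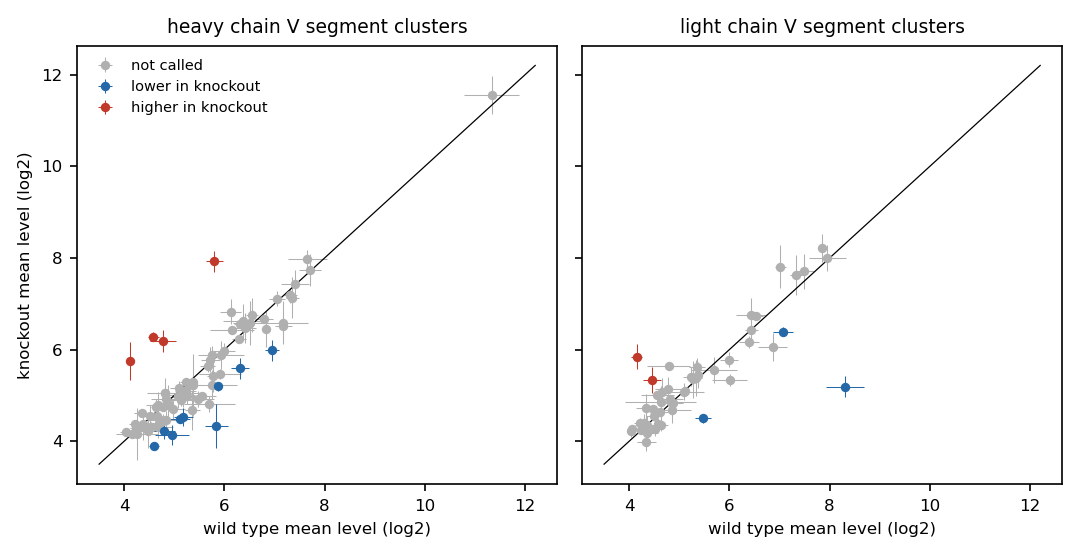
Mean level in wild type (horizontal axis, log2) against mean level in knockout (vertical axis, log2) for the 81 heavy chain (left) and 49 light chain (right) V segment clusters; bars are SDs over 3 arrays, the line marks equal levels, red clusters were called higher and blue clusters lower. Most clusters lie near the line, and the points farthest from it are Igkv19-93 below and Igh-VS107 above.

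Among the heavy chain rises, Igh-VS107 stood out. Its name is that of the S107 family, known for antibodies to phosphorylcholine, and RefSeq lists it as a synonym of Ighv7-3. The annotation also gives this name to clusters that carry the symbol Ighv7-2 or Ighv7-4, so the copy is uncertain. The levels were 5.98, 5.64 and 5.77 in wild type and 7.70, 7.93 and 8.15 in knockout. The groups did not overlap, and the lowest knockout array was above the highest wild-type array. The log2 change was 2.13 (SE 0.14), or 4.38-fold (adjusted p = 6.6e-04 with limma).

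Both measured members of the Ighv11 family rose too. This small family is known for antibodies of B-1 cells that bind phosphatidylcholine. Ighv11-1 was at 4.13, 4.16 and 4.03 in wild type and at 6.14, 5.31 and 5.79 in knockout. In wild type Ighv11-1 was thus close to the limit of 4.09, and it was clearly above the limit in every knockout array. Its log2 change was 1.64 (SE 0.20; adjusted p = 0.0055 with limma). Ighv11-2 was at 5.06, 4.58 and 4.68 in wild type and at 6.09, 6.00 and 6.45 in knockout, a log2 change of 1.41 (SE 0.17; adjusted p = 0.0051 with limma). In neither case did the groups overlap.

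The fourth heavy chain rise was that of Ighv1-54, a member of the large Ighv1 (J558) family. Its levels were 4.66, 4.64 and 4.45 in wild type and 6.18, 6.37 and 6.30 in knockout. The arrays of each genotype lay close together, and the change of 1.70 (SE 0.09) had the smallest adjusted p of all 130 clusters (adjusted p = 2.55e-04 with limma). Of the other 43 tested Ighv1 clusters none was called higher.

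**Figure D2:**
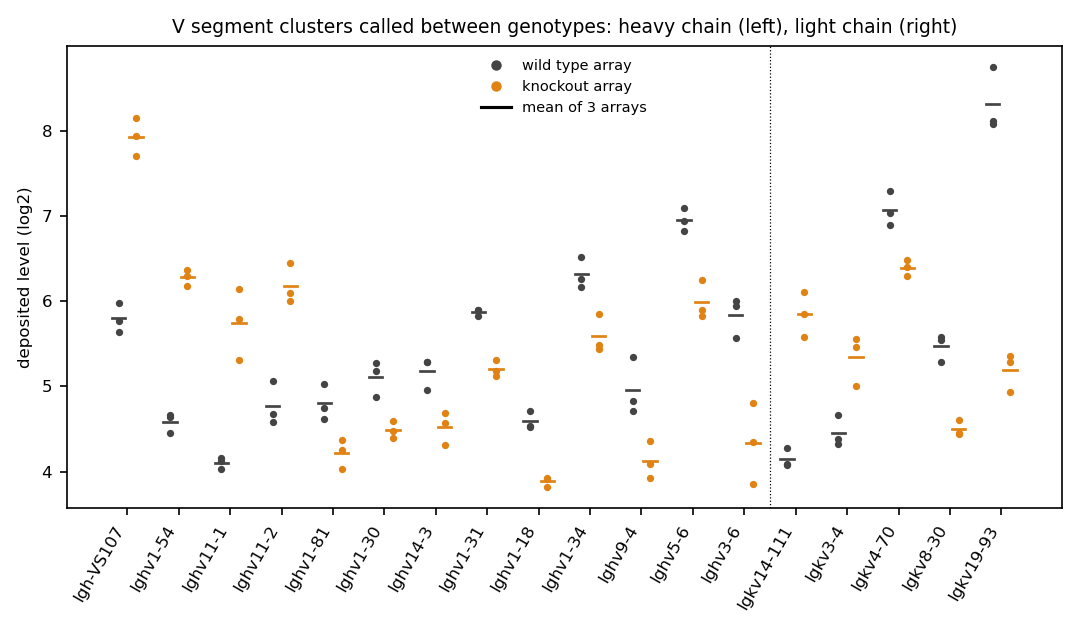
Deposited log2 level of the 18 called V segment clusters in each array, with wild-type arrays in grey, knockout arrays in orange and bars at the mean of 3 arrays; heavy chain clusters are left of the dotted line, ordered from the largest rise to the largest fall, and light chain clusters right of it. The groups are separate in each cluster shown, with the widest gap in Igkv19-93 (8.31 against 5.19).

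The heavy chain falls were smaller in size than the rises, except for that of Ighv3-6. Ighv3-6 was at 5.94, 5.57 and 6.00 in wild type and at 4.35, 4.80 and 3.85 in knockout. The knockout arrays were all lower but spread over almost a full log2 unit. The log2 change was -1.50 (SE 0.24; adjusted p = 0.015 with limma), and it no longer passed when wild-type array 1 (adjusted p = 0.059), wild-type array 3 (0.065) or knockout array 1 (0.051) was left out.

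Ighv5-6, of a family near the constant region end of the locus, was at 6.94, 6.82 and 7.09 in wild type and at 5.82, 6.25 and 5.90 in knockout. It changed by -0.96 (SE 0.13; adjusted p = 0.0082 with limma). Ighv1-18 was at 4.71, 4.52 and 4.54 against 3.93, 3.91 and 3.82, a change of -0.70 (SE 0.08; adjusted p = 0.0037 with limma). Its knockout mean lay under the limit of 4.09, so it passed the limit through its wild-type level. Ighv1-31 was at 5.83, 5.90 and 5.89 against 5.18, 5.12 and 5.31, a change of -0.67 (SE 0.07; adjusted p = 0.0037 with limma). These 3 falls were called in each of the 6 fits that left out 1 array.

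The other 5 heavy chain falls were less firm. They were Ighv9-4 (log2 change -0.84, from 4.96 to 4.13), Ighv1-34 (-0.72, from 6.31 to 5.59), Ighv14-3 (-0.66, from 5.18 to 4.52), Ighv1-30 (-0.62, from 5.11 to 4.49), which RefSeq classes as a pseudogene, and Ighv1-81 (-0.58, from 4.80 to 4.22), named outside the rule for naming. In each of them all knockout arrays were below all wild-type arrays. With all arrays the adjusted p of these 5 from limma ran from 0.026 to 0.048. Ighv9-4 and Ighv1-81 lost the call without any 1 array (adjusted p up to 0.13 and 0.12, limma). Ighv1-34 lost it when any 1 of the wild-type arrays (adjusted p = 0.056, 0.091 and 0.093 with limma), knockout array 2 (0.094) or knockout array 3 (0.090) was left out. Ighv14-3 lost it when wild-type array 1 (adjusted p = 0.105 with limma), wild-type array 2 (0.115), knockout array 1 (0.076) or knockout array 3 (0.085) was left out. Ighv1-30 stayed called without wild-type array 2 alone, and its adjusted p with limma ran from 0.052 to 0.0999 when any 1 of the other 5 arrays was left out.

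Among the light chain clusters the largest change was the fall of Igkv19-93, the only Igkv19 segment among the named clusters. Its levels were 8.75, 8.08 and 8.11 in wild type and 5.29, 5.36 and 4.93 in knockout. Igkv19-93 was thus among the brightest kappa clusters in wild type and near the middle of the kappa clusters in knockout. The log2 change was -3.12 (SE 0.21), or 8.69-fold on the scale assumed here (adjusted p = 7.1e-04 with limma). With all 6 arrays none of the 39543 tested clusters had a lower log2 change.

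Igkv14-111 changed the other way. It was at 4.08, 4.28 and 4.09 in wild type and at 6.11, 5.58 and 5.85 in knockout, with no overlap and a change of 1.70 (SE 0.14; adjusted p = 0.0016 with limma). Its wild-type level was at about the limit, as for Ighv11-1. The other members of its family did not pass: over the 3 tested Igkv14 clusters the changes ran from 0.01 to 1.70 with a median of 0.10.

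Igkv8-30 was at 5.54, 5.29 and 5.58 in wild type and at 4.45, 4.44 and 4.61 in knockout, a change of -0.97 (SE 0.10; adjusted p = 0.0031 with limma). Igkv4-70 was at 6.89, 7.29 and 7.03 against 6.29, 6.40 and 6.48, a change of -0.68 (SE 0.11; adjusted p = 0.017 with limma). Igkv3-4, the segment at position 4 from the constant region end, was at 4.38, 4.66 and 4.32 against 5.46, 5.01 and 5.55, a change of 0.89 (SE 0.16; adjusted p = 0.023 with limma). The groups did not overlap in any of the 3. Igkv4-70 did not pass when wild-type array 3 (adjusted p = 0.063), knockout array 1 (0.057) or knockout array 2 (0.057) was left out, by limma. Igkv3-4 did not pass in the fits that left out wild-type array 1 (adjusted p = 0.080), wild-type array 3 (0.093), knockout array 1 (0.074) or knockout array 3 (0.070), by limma.

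In all, 10 of the 18 called clusters were called in each of the 6 fits that left out 1 array: Igh-VS107, Ighv11-1, Ighv11-2, Ighv1-54, Ighv5-6, Ighv1-18, Ighv1-31, Igkv19-93, Igkv14-111 and Igkv8-30. The direction of all 18 was the same in each of these fits. Each fit kept the limit as set on all 6 arrays. Of the 10, Ighv1-18 was above the limit only through its wild-type level.

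Seen by family, changes of both signs occurred within the heavy chain locus. The families follow the sequence groups in the segment names. The counts by family stand beside 2.96% of all tested clusters called higher, 4.84% called lower and 19500 of 39543 with a change below 0. Of 44 tested Ighv1 clusters (61 before the limit) 1 rose and 5 fell, and 30 had a change below 0 (median log2 change -0.11). The 8 Ighv2 (Q52) clusters, all of those on the array with a single Ighv2 symbol, had changes between 0.02 and 0.70, and none passed. The largest of these was Ighv2-2 (6.37, 5.99 and 6.01 against 6.57, 7.11 and 6.79; adjusted p = 0.053 with limma). It was called when knockout array 1 was left out (limma adjusted p = 0.0488). Of 8 Ighv5 clusters 1 fell (median -0.14), and of 3 Ighv14 clusters 1 fell (range -0.66 to -0.33).

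Kappa families gave a similar mix, read beside the same shares of all tested clusters (2.96% called higher and 4.84% lower). Igkv4, with 19 tested clusters of 25 the largest, had 1 call, the fall of Igkv4-70, and 13 changes above 0 (median 0.11). Its changes ran from -0.68 to 0.86. Igkv4-57-1, at the upper end, was at 5.24, 4.74 and 4.38 in wild type and 5.57, 5.74 and 5.62 in knockout, with no overlap. It did not pass (adjusted p = 0.056 with limma), but was called when wild-type array 1 was left out (0.0141). Of 5 tested Igkv8 clusters 1 fell (median -0.01). The 3 Igkv1 clusters had changes from 0.05 to 0.39 and none passed. Ighv2-2 and Igkv4-57-1 were chosen after their values were seen.

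**Figure D3:**
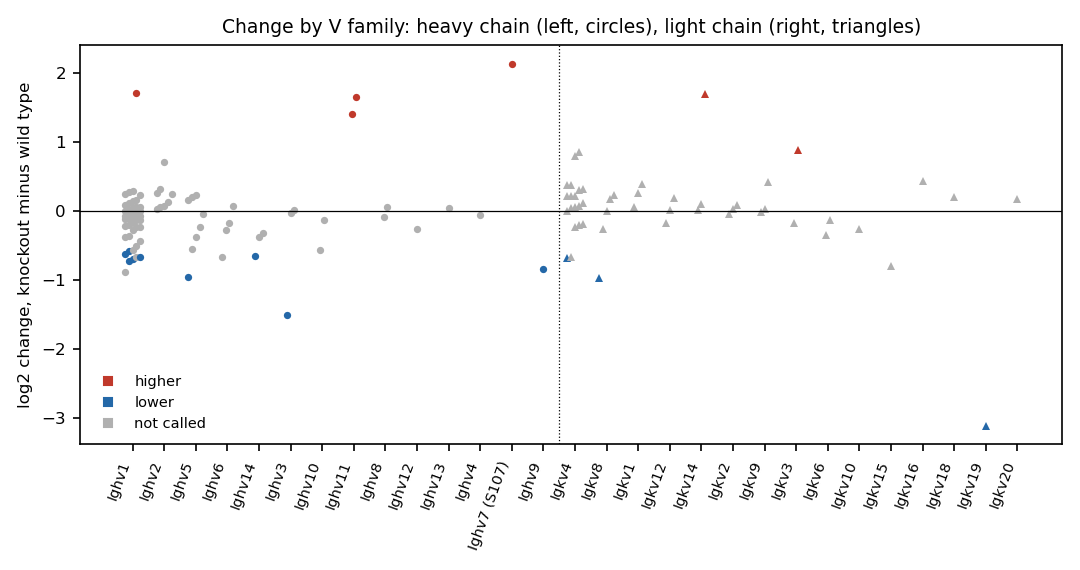
Log2 change (knockout minus wild type, vertical axis) of each of the 130 V segment clusters, by V family on the horizontal axis, heavy chain families as circles left of the dotted line and kappa families as triangles right of it; red was called higher, blue lower and grey not called. Both Ighv11 clusters are among the rises, and the lowest point is the single Igkv19 cluster at -3.12.

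Along the locus, 3 of the 4 heavy chain rises lay near each other. Order was taken from the RefSeq gene table, counting its 183 Ighv segments from the constant region gene Ighm, whose end of the locus is called proximal. Ighv11-1 is at position 38, Ighv11-2 at 42 and Ighv7-3, taken here for Igh-VS107, at 51. Clusters between and beside them did not share the rise. Ighv14-2, between both Ighv11 segments, changed by -0.33 and did not pass, and Ighv14-3, the next above Ighv11-2, fell by 0.66. Beyond Igh-VS107, Ighv3-3 changed by 0.01 and did not pass, and then came Ighv3-6 and Ighv9-4, both of which fell. The fourth rise, Ighv1-54, was at position 138. Among the falls Ighv1-30, Ighv1-31 and Ighv1-34 were next to each other in the order of measured clusters, at positions 110, 111 and 114.

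Split by order into 3 equal parts of 27, the heavy chain clusters had a median log2 change of 0.02 in the proximal part, -0.23 in the middle part and -0.04 in the distal part. In the middle part, from Ighv13-2 to Ighv1-43, 22 of 27 changes were below 0, with 4 called lower and 0 higher. Among all tested clusters 19500 of 39543 changes were below 0, and 4.84% were called lower and 2.96% higher. In the proximal part 3 were called higher and 4 lower, and in the distal part 1 each. The 49 kappa clusters showed medians of 0.03, 0.21 and 0.05 from the proximal to the distal part, and no part held more than 1 call in either direction. Neighbouring segments share sequence, so these counts are given as a description with no test.

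**Figure D4:**
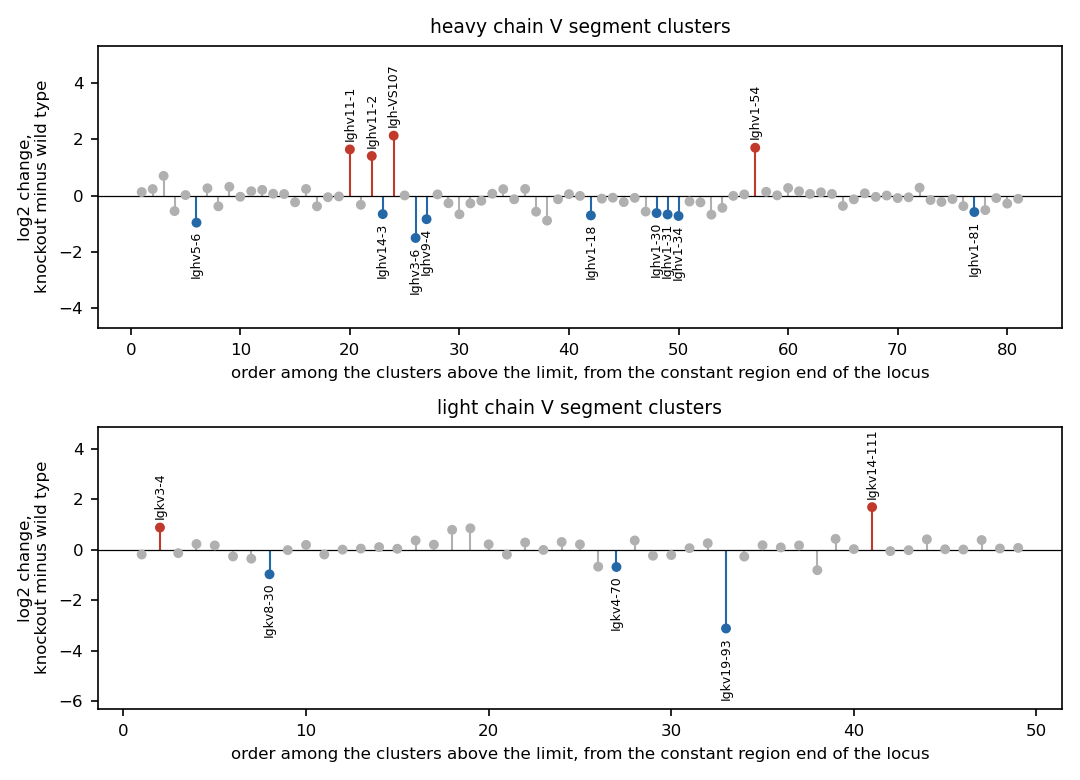
Log2 change (knockout minus wild type, vertical axis) of the heavy chain (top) and kappa light chain (bottom) V segment clusters, placed on the horizontal axis by their order among the measured clusters from the constant region end; red was called higher, blue lower and grey not called. Calls of opposite direction lie side by side around Ighv11-2, Ighv14-3 and Igh-VS107, and the fall of Igkv19-93 stands alone among its neighbours.

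As a whole, neither chain moved one way. The median log2 change was -0.08 over the heavy chain clusters, with 49 below 0 and 32 above, and 0.05 over the light chain clusters, with 18 below 0 and 31 above. Over all tested clusters the median was 0.00. The heavy chain median level was 5.42, 5.23 and 5.18 in the wild-type arrays and 5.0, 5.14 and 5.19 in the knockout arrays, so the groups overlapped. The kappa medians were 5.11, 4.83 and 4.90 in wild type and 5.04, 5.07 and 5.10 in knockout, and overlapped too. The heavy chain median change was -0.02 without wild-type array 1, -0.13 without wild-type array 3, -0.05 without knockout array 1 and -0.15 without knockout array 2. The kappa median was 0.13 without wild-type array 1, 0.12 without knockout array 1 and 0.00 without knockout array 3. Groups did not overlap in 24 heavy chain clusters (29.6%; 8 higher and 16 lower in knockout) and 16 kappa clusters (32.7%; 10 higher and 6 lower), against 26.5% of all tested clusters (11.6% higher and 14.9% lower). Among tested clusters with a level under 8 the share without overlap was 22.1%.

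Immunoglobulin V segment clusters varied more than the tested clusters as a whole, both between and within genotypes. The median size of the change, without sign, was 0.23 for heavy and 0.21 for light chain clusters, against 0.11 over all tested clusters and 0.10 over those with a level under 8. The median SD over the 3 wild-type arrays was 0.20 for heavy chain, 0.16 for light chain and 0.09 for all tested clusters. Over the knockout arrays it was 0.19, 0.19 and 0.11. For the 63 T cell receptor V segment clusters above the limit these SDs were 0.136 and 0.155, also above those of all tested clusters. Their median size of change was 0.11. Within wild type the highest value fell in array 1 for 46 of 81 heavy chain clusters (56.8%) and 25 of 49 light chain clusters (51.0%), against 37.1% of all tested clusters and 38.5% of those with a level under 8. Within knockout it fell in array 2 for 43 heavy chain clusters (53.1%) and 22 light chain clusters (44.9%), against 31.8% and 37.1%. T cell receptor V segment clusters shared both tendencies, at 68.3% in wild-type array 1 and 77.8% in knockout array 2. Across the 130 clusters, which are not independent replicates, arrays of 1 genotype correlated at 0.956 to 0.962 and arrays of different genotypes at 0.823 to 0.884. Over all 39543 tested clusters these ranges were 0.997 to 0.998 and 0.994 to 0.995. A correlation also depends on the spread of levels, which was wider over all tested clusters (4.09 to 19.93) than over the 130 (4.12 to 11.445). No correlation was computed over clusters of matched level, so the 2 sets of ranges are not directly comparable.

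The brightest clusters did not pass. Ighv1-2, classed by RefSeq as a pseudogene, was far above the rest at 11.84, 11.40 and 10.75 in wild type and 11.28, 12.03 and 11.37 in knockout. The groups overlapped, and the change was 0.23 (SE 0.31; adjusted p = 0.75 with limma). The next heavy chain clusters by level were Ighv2-5 at a mean of 7.81 (change 0.31) and Ighv2-3 at 7.72 (change 0.02). The brightest kappa clusters were Igkv4-71 at 8.03 (change 0.37), Igkv4-54 at 7.98 (change 0.04) and Igkv4-63 at 7.61 (change 0.22). None of these 5 passed. In wild type alone Igkv19-93, at a mean of 8.31, was brighter than Igkv4-71 (7.84), Igkv4-54 (7.96) and Igkv4-63 (7.50).

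Around the limit, the heavy chain clusters just inside were Ighv1-61 (mean 4.12), Ighv3-3 (4.16) and Ighv8-13 (4.21), and those just outside were Ighv9-3 (3.96), Ighv1-7 (3.95) and Ighv1-24 (3.92). Ighv9-3 had means of 3.55 (wild type) and 4.36 (knockout). The kappa clusters just inside were Igkv20-101-2 (4.13), Igkv18-36 (4.16) and Igkv6-25 (4.17), and the 3 just outside had means of 4.08, 4.06 and 4.01. Of the 130 clusters 5 had a mean above the limit in 1 genotype alone, and Ighv1-18 was the 1 of these that was called. The 33 heavy and 37 light chain clusters under the limit were not tested, and with the limit removed 0 of them were called in either direction (limma, Benjamini-Hochberg).

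The V segments of T cell receptor genes, a family of the same kind that T cell precursors join, gave no call. Of 63 such clusters above the same limit (116 before it) 0 were called (limma, Benjamini-Hochberg). Their median level was 4.77. The called share was 7.80% of all tested clusters and 4.71% of those with a level under 8. Their changes lay between -0.84 and 0.32 with a median of 0.08. Groups did not overlap in 4 of them (6.35%), against 26.5% of all tested clusters and 22.1% of those with a level under 8. Their highest value within knockout fell in array 2 for 49 of 63 clusters (77.8%), against 31.8% of all tested clusters.

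Other genes of the antibody pathway were taken from 4 lists, and their counts stand beside 4.84% of all tested clusters called lower and 2.96% called higher. Among tested clusters with a level under 8 the share called lower was 2.97%. Among brighter ones, where Ighm, Dntt, Ikzf1 and Ezh2 lie, it was thus above 4.84%. Of 3 tested constant region genes 2 rose and 1 fell. Ighm, encoding the constant part of the mu heavy chain and known to give germline transcripts in early progenitors, was at 11.78, 11.79 and 11.72 in wild type and at 10.80, 10.63 and 10.90 in knockout. It fell by 0.99 (SE 0.08; adjusted p = 0.0013 with limma). Both tested gamma constant region genes were dim. Ighg1 was at 4.15, 3.88 and 3.91 against 4.63, 4.63 and 4.60 and rose by 0.64 (SE 0.09; adjusted p = 0.0080 with limma). Its wild-type mean of 3.98 lay under the limit of 4.09, so it was tested only because of its knockout level. Ighg2b rose by 0.60 from 4.96 to 5.56, but did not pass when wild-type array 2 (limma adjusted p = 0.065) or 3 (0.066) was left out. These were the 3 constant region genes of 14 listed that had a cluster above the limit, and Ighe lay under it. The others, Igkc and Iglc1 among them, lacked a cluster with their own symbol and no other, and were not analysed here.

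Of 9 tested genes of the surrogate light chain and the receptor's signalling parts, 3 fell and 0 rose. Cd79a, a signalling chain of the B cell receptor, was at 5.48, 5.58 and 5.63 in wild type and 4.84, 4.94 and 5.09 in knockout and fell by 0.61 (SE 0.09; adjusted p = 0.0095 with limma). The adaptor gene Blnk was at 5.90 in each wild-type array and at 5.33, 5.14 and 5.31 in knockout, and fell by 0.64. Igll1, of the surrogate light chain, fell by 0.46 from 4.39 to 3.93, and stayed called without knockout array 1 alone. Without any 1 of the other 5 arrays its limma adjusted p ran from 0.051 to 0.084. The knockout mean of Igll1 was under the limit, so it was tested only because of its wild-type level. Vpreb1, the other surrogate light chain part, differed by 0.02 and did not pass.

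Of 9 tested recombination genes 2 fell and 0 rose. Dntt, encoding the enzyme that adds bases at the joins, was bright at 12.77, 12.68 and 12.78 in wild type and 11.35, 11.37 and 11.48 in knockout. Dntt fell by 1.34 (SE 0.06; adjusted p = 1.7e-04 with limma). Xrcc6, encoding the Ku70 end-joining protein, fell by 0.38, and it did not pass when wild-type array 1, 2 or 3 was left out (limma adjusted p = 0.061, 0.065 and 0.075). Rag2 had a mean over the 6 arrays under the limit and was not tested; it was at 4.31, 4.19 and 4.19 in wild type and at 3.89, 4.02 and 3.84 in knockout, with no overlap. Rag1 was not analysed here.

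Of 16 tested regulators of the immunoglobulin loci 5 fell and 1 rose, read as counts beside the shares given above. Il7r, encoding the interleukin-7 receptor, fell by 1.08 from 6.37 to 5.28. Ebf1, a B lineage transcription factor gene, fell by 0.83 from 5.81 to 4.98. Ikzf1 (Ikaros) fell by 0.53 and Ezh2, a Polycomb methyltransferase gene, by 0.46. Irf8 fell by 0.40, and in the fits that left out wild-type array 1, 2 or 3 it did not pass (limma adjusted p = 0.053, 0.081 and 0.086). Foxo1, a factor that drives Rag expression in B cell precursors, was the gene that rose, from 7.42 to 8.33. Pax5, which sets B cell identity, differed by -0.08 at a level near the limit, and Pou2af1, a coactivator at V segment promoters, by -0.23; neither passed.

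**Figure D5:**
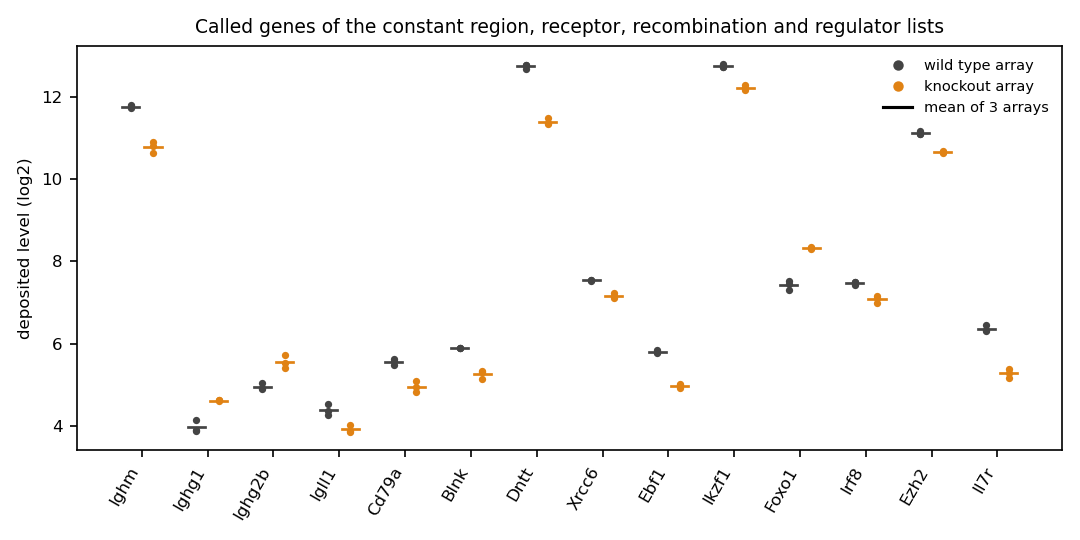
Deposited log2 level in each array of the called genes of the constant region, receptor, recombination and regulator lists, wild-type arrays in grey and knockout arrays in orange, with bars at the mean of 3 arrays. Ighg1, Ighg2b and Foxo1 are higher in knockout, and the other genes are lower.

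Markers of mature B cells and plasma cells differed widely in level: Xbp1 (mean over 6 arrays 11.64), Cd79b (7.36) and Ralgps2 (7.36) lay above the median of all tested clusters, and 10 others lay under the limit. In bulk samples fewer cells of a type and less RNA per cell cannot be told apart. Of 14 B cell markers 13 had a cluster, and 6 of these (Ms4a1, Cd22, Blk, Fcer2a, Fcrla and Spib) lay under the limit. The mean level over the 13 was 4.60 to 4.67 in the wild-type arrays and 4.51 to 4.56 in the knockout arrays. Of the 7 tested, Cd79a and Ralgps2 fell and 0 rose, beside 4.84% of all tested clusters called lower and 2.96% called higher. Ralgps2 stayed called without knockout array 3 alone (limma adjusted p of 0.056 to 0.096 without any 1 of the other 5 arrays). Of 10 plasma cell markers 4 (Prdm1, Mzb1, Derl3 and Slamf7) lay under the limit, and the mean level over the 10 was 4.96 to 5.03 in wild type and 5.01 to 5.07 in knockout. Xbp1, a secretory stress factor that many cells express, rose by 0.50 and was no longer called when wild-type array 2 was left out (limma adjusted p = 0.059), or array 3 (0.058). Jchain, which joins secreted IgM and IgA, differed by -0.08 and did not pass. The part of B lineage or plasma cells in the V segment changes was not tested.

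Among markers of other cells, 0 of 4 tested T cell markers and 0 of 4 tested erythroid markers were called (limma, Benjamini-Hochberg). Over all tested clusters 2.96% were called higher and 4.84% lower. Of 10 granulocyte markers 2 rose and 0 fell (Prtn3 by 0.43 and Ctsg by 0.54), and each of these calls was lost in 5 of the 6 fits without 1 array (limma adjusted p up to 0.15 and 0.11). The 10 differed widely in level, from Mpo (mean over 6 arrays 16.90) to Ltf (4.57). Of 6 megakaryocyte markers 3 rose and 0 fell (F2r by 1.15, Itga2b by 0.56 and Gp9 by 0.56). The mean level over the megakaryocyte list was 5.86 to 5.88 in wild type and 6.19 to 6.24 in knockout. Their part in the V segment changes was not tested.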

How the data were processed

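Values were taken from the authors' deposited series table, which holds log2 expression per transcript cluster and array. The submitters' processing notes name MAS5 with no version or role; no source used here gives the background correction, the normalization or the log base, and fold sizes rest on a log2 reading. A symbol that the annotation repeats for 1 cluster was counted once, which left 30604 clusters with 1 symbol, 2146 with several and 33206 with none. Clusters with a mean over 6 arrays above 4.09 were kept (the dimmest 40% left out; 39543 kept). Genotype was fitted over all of them with limma 3.58.1 (R 4.3.3; empirical Bayes with an intensity trend, two-sided p-values, Benjamini-Hochberg adjusted, called under 0.05); the steps were tested on simulated data. The SE is the moderated one. Lists were counted on the brightest cluster of each gene.

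Members, lists and rules were chosen with earlier results of these data known. Named clusters were, per chain, up to 8 called rises and 8 called falls, the 3 brightest, and the 3 nearest each side of the limit; for the lists, called members and a fixed set of B lineage genes. Alternatives were quantile normalization, a common median, no filter, the dimmest 60% left out, no trend, the replicate block and leaving out each array. Segment order is that of RefSeq on GRCm38.p6; the array's build is not stated, so no coordinates are given. No sequence of a V segment was used here. Python 3.11.15, pandas 2.3.3 and matplotlib 3.10.9 prepared tables and plots.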

Additional observations from a re-analysis of the deposited data

How the results depend on the processing

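All 18 called V segment clusters kept their direction in each alternative in which they were tested; with the dimmest 60% left out 11 of them were tested and all 11 were called. Still called were 18 with arrays shifted to a common median, 17 after quantile normalization and 17 without the intensity trend (Ighv1-81 was lost in both), and 16 with no filter (Ighv9-4 and Ighv1-81 lost). Calls were also gained. Ighv2-2, Igkv15-103 and Igkv4-57-1 gained one with the common median and with the dimmest 60% left out. Ighv6-3 did in the former alone and Ighv1-26 in the latter alone. Leaving out knockout array 2 gained Ighv6-3, Igkv15-103 and Igkv4-57. Heavy chain clusters called lower numbered 5 with the dimmest 60% left out, where 51 of the 81 were tested. Leaving out 1 array gave 3 to 6 heavy chain clusters called lower and 4 to 5 higher, 2 to 3 light chain clusters lower and 1 to 3 higher, and over all clusters 542 to 971 higher and 764 to 1508 lower.

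With the replicate block, 630 clusters were called higher and 1083 lower over all, 4 heavy chain V segment clusters lower and 1 light chain V segment cluster higher; 12 of the 18 calls were kept. The lost ones were Ighv3-6, Ighv9-4, Ighv1-34, Ighv14-3, Ighv1-81 and Igkv3-4. The labels give no meaning to a shared number, deviations of same-numbered arrays from their group means correlated at -0.14, -0.10 and 0.02, and no array correlated best with its own number. The cause of these differences was not tested. Signal near background limits the dim clusters: 56 of 130 had a level under 5.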

Other observations

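Another 18 tested clusters carry several symbols with an immunoglobulin V segment among them, so they were left out above and are not named. Of these 3 were called higher and 2 lower (limma, Benjamini-Hochberg), with log2 changes from -0.81 to 1.17. Groups did not overlap in 10 of the 18. Over all tested clusters 7.80% were called and the groups did not overlap in 26.5%.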
